A study of Oryza sativa with 4 samples.

Results

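The regions described here are stretches of the rice genome with weak OsNF-YB1-GFP signal that were called in both transgenic lines and in which neither line had a narrow peak. They were chosen by the peak calls themselves. A broad region of either line was kept when it shared no base with a narrow peak of either line and overlapped, by 1 bp or more, another such region of the other line. Overlapping regions were then merged. This left 1582 merged regions, built from 1586 of the 12272 broad regions of line 16 and 1586 of the 6810 broad regions of line 22, out of 19082 broad regions in all. Because presence in both lists, absence of a narrow peak and the calling thresholds made the selection, the values below describe these regions and no test was run on them.

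Caryopsis coats, the outer tissues of the rice (Oryza sativa) grain, were sampled 8 to 12 days after fertilization (DAF). Both lines, 16 and 22, carried pUbi:OsNF-YB1-GFP, so that a ubiquitin promoter and not the promoter of OsNF-YB1 itself drove the fusion, and signal could come from any cell of the coat that expressed it. Each line gave 1 library from chromatin precipitated with an anti-GFP antibody and 1 input library from chromatin that was not precipitated, each pooled from 4 ChIP experiments. No library from plants without the fusion was analysed here. MACS kept between 20143149 and 21994210 tags per library.

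OsNF-YB1 is a rice member of the NF-YB family, whose proteins carry a histone fold and pair with NF-YC proteins to form a dimer that holds DNA with little sequence preference. In the classical NF-Y trimer the NF-YA subunit adds recognition of the CCAAT box. OsNF-YB1 is expressed in the aleurone layer, the outer cell layer of cereal endosperm, through which sugars and amino acids pass during grain filling. In ChIP-seq, a factor bound at a defined site usually gives a sharp pile of tags, which a narrow call finds, whereas a broad call joins neighbouring stretches of weaker enrichment into 1 region. A list of calls gives where such regions lie and how strong they are, and does not say what the protein does there.

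Most broad regions had no narrow peak. In line 16, 2314 broad regions contained a narrow peak called in that line, a further 227 met narrow peaks of line 22 alone, and 9731 (79.3%) were free of any. In line 22 these numbers were 823, 464 and 5523 (81.1%). Of the regions without a narrow peak, 16.3% in line 16 (95% Wilson interval 15.6 to 17.0%, counting error only) and 28.7% in line 22 (27.5 to 29.9%) overlapped such a region of the other line. Over all broad regions, with or without a narrow peak, 20.2% of line 16 and 36.5% of line 22 overlapped any broad region of the other line. The shares differ between the lines because the same overlaps are counted against lists of unequal size. The rule keeps every region without a narrow peak that overlaps such a region of the other line, while how many did so was measured. These counts were not compared with those of randomly placed regions, and nothing is read from them.

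The pairing of the regions was almost always simple. There were 1590 overlapping pairs, and 1574 of the 1582 merged regions consisted of 1 region from each line, while 8 joined more than 1 region of a line. Together they spanned 1.11 Mb, which is 0.300% of the effective genome size of 370 Mb that the authors set. The bases covered in both lines came to 0.466 Mb, or 42.1% of the merged span.

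The merged regions were short. Their length ran from 169 to 3113 bp with a median of 636.5 bp. Of the 1582, 107 (6.76%) were under 300 bp and 253 (16%) were 1000 bp or longer. A merged region spans a region of each line, so by construction it is at least as long as either. Before merging, 7.50% of the shared regions of line 16 and 4.79% of those of line 22 were 1000 bp or longer. Of the single regions that went into them, those of line 16 measured 445 bp at the median and those of line 22 measured 418.5 bp. Regions without a narrow peak that were not shared had medians of 364 bp and 355 bp, and regions that held a narrow peak of their own line were shorter still at the median, with 319 bp and 268 bp. At the upper quartile this order turned, with 543 and 525 bp for not shared regions and 572 and 530.5 bp for regions with a narrow peak. Of the not shared regions 3.39% and 1.96% were 1000 bp or longer, and of those with a narrow peak 6.74% and 4.50%. The median length was higher in the shared than in the not shared regions on 12 of 12 chromosomes in either line. A longer region has more bases with which to meet a region of the other list, so the rule itself favours length. In line 16, 11.2% of the shortest 20% of regions without a narrow peak were shared, compared with 24.7% of the longest 20%. In line 22 the corresponding shares were 22.1% and 37.4%. In every list the shortest region had the fragment length set for MACS.

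**Figure D1:**
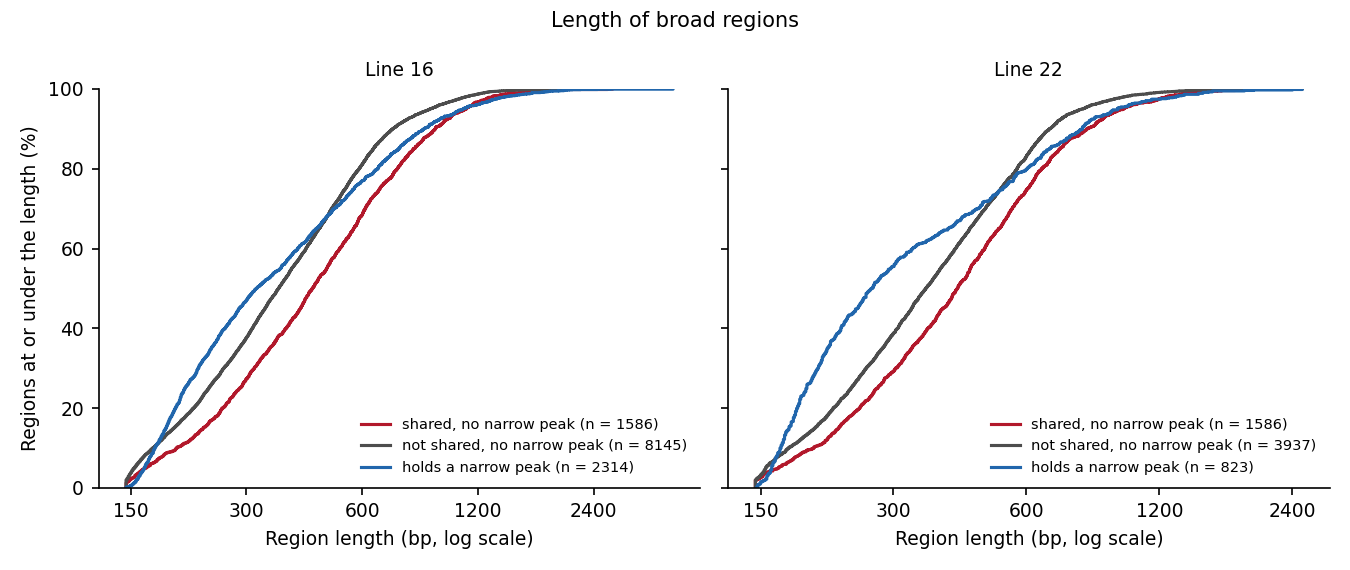
Cumulative share of broad regions (vertical axis, %) at or under each length (horizontal axis, bp, log scale) in line 16 and line 22. Shared regions without a narrow peak (red) reach 50% at 445 bp and 418.5 bp, to the right of regions that were not shared (grey, 364 and 355 bp) and of regions that held a narrow peak of the same line (blue, 319 and 268 bp). At the upper quartile blue lies at 572 and 530.5 bp and grey at 543 and 525 bp.

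Since overlap was required, that paired regions lie together is set by the rule, and the values here describe how they lay on each other. The overlap had a median of 257 bp, which was 95.7% of the shorter region of the pair but only 46.0% of the span covered by both. In 638 of the 1590 pairs (40.1%) 1 region lay wholly inside the other, the region of line 22 inside that of line 16 in 369 of them and the reverse in 269. The centres of the paired regions lay a median of 122.5 bp apart, with an interquartile range of 50.5 to 261.5 bp. No pair had both borders in common, whereas 3 pairs began and 9 ended at the same base. Length itself was hardly related between the lines. Across the 1590 pairs, log2 length gave Pearson's r = 0.153 and Spearman's rho = 0.155, and the region was longer in line 16 in 853 pairs and longer in line 22 in 731.

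At the edge of the rule, the weakest accepted overlap was 1 bp. It joined a region of line 16 on chromosome 5 of MSU7.0, from 22022935 to 22023228, with a region of line 22 from 22023228 to 22023601, and the fold enrichments were 2.02 and 2.15. Just outside, a region of line 16 on chromosome 7, from 1975720 to 1976249, touched a region of line 22 from 1976250 to 1976490 without sharing a base. Its fold enrichment was 2.18 against 1.97 in line 22. In all, 205 pairs overlapped by fewer than 100 bp, and 60 regions of line 16 missed a region of line 22 by a gap of fewer than 100 bp.

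Enrichment over background was low and even. Fold enrichment is the authors' ratio of ChIP tags to the local background, averaged over the region. In the shared regions it had a median of 2.12 in line 16, with a range of 1.49 to 2.79, and a median of 2.10 in line 22, with a range of 1.54 to 2.94. Regions that were not shared had practically the same medians, 2.12 and 2.09, and the shared regions were higher at the median on 4 of 12 chromosomes in line 16 and on 8 of 12 in line 22. Regions that held a narrow peak of their own line reached 2.31 and 2.30. In median fold enrichment the shared weak regions were thus level with those found in a single line. They were below the regions with a narrow peak, a difference that the rule itself favours.

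The q-value differed somewhat more between the groups. They were themselves made by calls at q-value thresholds, so the higher values of regions with a narrow peak are set by the rule. The authors' −log10 q-value, averaged over the region, had a median of 1.47 in line 16 and 1.38 in line 22 for shared regions, against 1.41 and 1.33 for those not shared and 1.99 and 1.89 for those with a narrow peak of the same line. It was higher in shared than in not shared regions on 12 of 12 chromosomes in line 16 and on 11 of 12 in line 22. When the regions without a narrow peak were ranked by this value, the share found in both lines went from 12.2% in the lowest 20% to 19.5% in the highest 20% in line 16, and from 22.1% to 33.5% in line 22. Ranked by fold enrichment, no such steady change was seen in line 16, where the shares were 17.5% and 16.5%. In line 22 they were 26.2% and 31.0%.

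Many regions passed a stricter q-value on average. In line 16, 1170 of the 1586 shared regions (73.8%) had a region-averaged q-value of 0.05 or less, the same figure that the authors required of narrow peaks at the summit, and so did 998 (62.9%) in line 22. Among the not shared regions 65.5% and 55.1% did so, and among regions with a narrow peak of their own line 99.7% and 99.5%. Both regions of a pair met it in 742 of 1590 pairs (46.7%), line 16 alone in 432, line 22 alone in 259 and neither in 157. A q-value of 0.01 or less in both lines was rare, in 10 pairs. It was uncommon in a single line too, with 153 of 1586 shared and 697 of 8145 not shared regions in line 16. In line 22 it was met by 88 of 1586 and 159 of 3937. How many pairs would meet either value if the lines were unrelated was not worked out, so nothing is read from the pair counts. The lowest −log10 q-values among the shared regions were 1.01 in line 16 and 1.0 in line 22, just inside the broad cutoff of 0.1.

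Fold enrichments of paired regions were close in size, and calling confines all weak regions to a narrow band of values whether shared or not, so closeness in size is no sign of agreement between the lines. The log2 ratio of line 16 to line 22 had a median of 0.01 and an SD of 0.11 over the pairs, and line 16 was higher in 834 pairs (52.5%). Across pairs, Pearson's r of log2 fold enrichment was 0.343 and Spearman's rho was 0.331. The same r on single chromosomes ran from 0.263 on chromosome 10 to 0.444 on chromosome 8. For the −log10 p-value r was 0.088 and rho 0.054, and for the −log10 q-value r was 0.085 and rho 0.054. Regions of the same libraries are not replicates, and these coefficients are a description with no test.

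Both the fold enrichment and the p-value of MACS depend on the local background, so the background was worked out from them. In the narrow peak lists, where the tag pileup is also given, fold enrichment is the pileup plus 1 over the background plus 1, and the p-value is the upper tail of a Poisson distribution with that background as its mean. Solving these relations from fold enrichment and p-value alone returned the background of the 835 narrow peaks of line 22 with a median ratio of 1.0. For the 2368 narrow peaks of line 16 the ratio was 0.957 at the median, and 0.858 at the lowest. There the pileup was scaled and is not a whole number, so levels of line 16 are slightly low and were not compared with those of line 22. For broad regions the inputs are averages over the region, and the solved value is an approximation, called the implied background below, in tags per position.

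Of the quantities compared between the lines, this one had the highest correlation. The SD of its log2 ratio between the lines was 0.22, against 0.11 for fold enrichment. The error of the solved values of line 16 varied among narrow peaks and can add to this spread, so it is not read as a difference between the lines. The implied background of the shared regions had a median of 11.4 tags in line 16 and 12.3 in line 22. Across the 1590 pairs, r of log2 background was 0.634 and rho was 0.582, compared with 0.343 for fold enrichment and 0.088 for the p-value. On single chromosomes r ran from 0.450 to 0.721. Within a line, fold enrichment fell with background, with r of -0.65 in line 16 and -0.68 in line 22. The background was solved from fold enrichment and p-value, so this relation is at least partly built in. When the pairs were divided by background into 3 sets of 530, r of log2 fold enrichment between the lines was 0.111 in the lowest, -0.05 in the middle and 0.174 in the highest set. Spearman's rho in the same sets was 0.105, -0.037 and 0.063, so the highest set did not lead by rank. Each set spans a narrower range of fold enrichment than all pairs together, which by itself lowers r. What part of the agreement in fold enrichment goes with the background the lines have in common was not tested further.

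**Figure D2:**
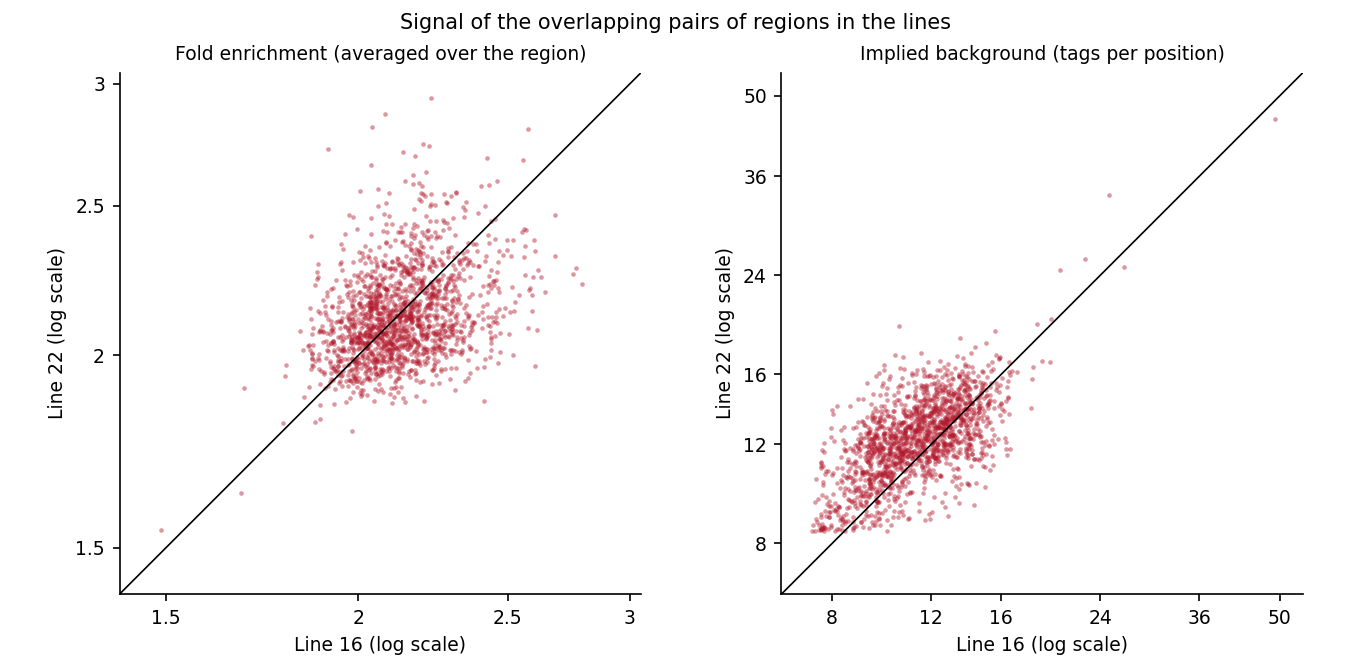
Each point is 1 of the 1590 overlapping pairs of regions, with line 16 on the horizontal and line 22 on the vertical axis, both on log scales, and the diagonal marks equal values. Fold enrichment (left) forms a round cloud about 2.12 and 2.10 with r = 0.343, and the implied background in tags per position (right) is drawn out along the diagonal with r = 0.634.

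By background, shared and not shared regions were compared within each line. In line 16 the shared regions had a median implied background of 11.4 tags and those not shared 10.8, and it was higher in the shared regions on 12 of 12 chromosomes. Ranked by background, 13.5% of the lowest 20% of regions without a narrow peak were shared and 22.2% of the highest 20%. In line 22 the medians were 12.3 and 12.2 tags, with the shared regions higher on 9 of 12 chromosomes, and the shares from the lowest to the highest 20% were 26.9%, 28.5%, 29.1%, 26.9% and 32.2%, with no steady rise. A few regions had far more. In 6 pairs the implied background was over 20 tags in at least 1 line, and in 5 of these it was over 20 in both. The extreme, chosen after its values were seen, lay on chromosome 6, with borders at 3097659 and 3098014 in line 16 and at 3097683 and 3097968 in line 22. It had 49.0 and 45.5 tags of background, and its fold enrichment of 1.49 and 1.54 was the lowest of all shared regions in either line. Without the 6 pairs r was 0.599 for background and 0.320 for fold enrichment.

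Most shared weak regions had a fold enrichment near 2 in both lines. Taking the lower of the fold enrichments of a region, the median was 2.05 and the highest 2.57. In 1127 of the 1582 regions (71.2%) both lines reached 2, and in 2 both reached 2.5. Reaching 2 in a line does not set the shared regions apart. Their lower quartile was 2.03 in line 16 and 2.03 in line 22, and that of the not shared regions was 2.04 and 2.01. The 2 regions in which both lines reached 2.5 were on chromosomes 5 and 8. The one on chromosome 5, from 19305466 to 19306330, had 2.57 in line 16 and 2.80 in line 22. The one on chromosome 8, from 27594346 to 27594530, had 2.56 and 2.68. They differ in shape. On chromosome 5 line 16 gave 650 bp and line 22 gave 292 bp, and a narrow peak of line 16 lay 4.47 kb away. On chromosome 8 the lengths were 176 and 152 bp and the nearest narrow peak was 33.8 kb away.

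The next 8 regions by this rank had a lower value between 2.41 and 2.47. They lay on chromosome 3 from 20211544, chromosome 7 from 11679435, chromosome 8 from 21624605 and from 22393982, chromosome 10 from 17395373, chromosome 9 from 3515664, chromosome 5 from 29936938 and chromosome 2 from 13699037. The pair on chromosome 8 from 21624605 to 21624802 had the same value in both lines to 2 decimals, 2.45, with −log10 q-values of 2.09 and 1.91. The region on chromosome 5 from 29936938 to 29937168 ended at the last base that any list reaches on that chromosome, with 2.41 in line 16 and 2.5 in line 22, and the nearest narrow peak was 187 kb away. The region on chromosome 2 from 13699037 to 13699271 had nearly the same borders in both lines, beginning at 13699037 and 13699039 and ending at the same base, with 2.56 and 2.41. In the implied background these 10 regions ranged from 7.46 to 9.69 tags in line 16 and from 8.61 to 12.0 tags in line 22. All were under the medians of the shared regions. The implied background is solved in part from fold enrichment and falls with it, so the choice by fold enrichment itself favours low values.

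The longest region, 3113 bp on chromosome 9 from 1839750 to 1842862, covered 2687 bp in line 16 but 1194 bp in line 22, with fold enrichments of 2.04 and 2.17. The next, on chromosome 7 from 18264973 to 18267723, joined 1 region of 1465 bp in line 16 to 2 regions with 1623 bp in line 22, with 2.06 and 2.16. The one after it, on chromosome 9 from 14593477 to 14596085, had 2609 bp in line 16 and 749 bp in line 22, with 2.36 and 2.25. Their fold enrichments, from 2.04 to 2.36, lay inside the range of the other shared regions.

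The lines differed most at few places, and never by more than 1.42 times. Line 22 exceeded line 16 by this factor on chromosome 3 from 26180774 to 26181131, where line 16 had a fold enrichment of 1.91 and line 22 one of 2.72. On chromosome 5 from 14727098 to 14728519 it was 2.08 and 2.87, and the region measured 1420 bp in line 16 but only the shortest length in the lists in line 22. On chromosome 1 from 39326896 to 39327714 it was 2.04 and 2.81. In the other direction, line 16 exceeded line 22 by at most 1.32 times, on chromosome 12 from 22577971 to 22578330, with 2.60 and 1.97. It was followed by chromosome 2 from 24724091, with 2.41 and 1.87, and chromosome 9 from 1048357, with 2.52 and 2.0. With 1 ChIP library per line, none of these differences has a replicate check.

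The gaps between the shared weak regions and narrow peaks varied widely. They were not compared with the gaps of randomly placed regions. The gap to the nearest narrow peak of either line had a median of 34.6 kb, with an interquartile range of 12.7 to 70.8 kb. A narrow peak was within 1 kb of 35 regions (2.21%, 95% Wilson interval 1.60 to 3.06%), within 3 kb of 119 (7.52%) and within 10 kb of 322 (20.4%, 18.4 to 22.4%), and it was more than 100 kb away from 258 (16.3%). The nearest narrow peak belonged to line 16 for 1143 regions (72.3%) and to line 22 for 438 (27.7%), and 1 region was equally far from both. Line 16 held 73.9% of all narrow peaks, so these shares are close to those of the lists. Measured to each list alone, the median gap was 47.3 kb for line 16 and 137 kb for line 22.

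Shared and not shared regions had similar median gaps and similar shares within 10 kb, and differed more at the extremes. Within 1 kb of a narrow peak lay 1.89% of shared and 1.76% of not shared regions in line 16. In line 22 these shares were 1.77% and 3.38%. More than 100 kb away lay 16.3% of shared and 20.2% of not shared regions in line 16, and 16.3% and 18.8% in line 22. Among regions of line 16 the median gap was 34.6 kb for shared and 39.7 kb for not shared regions, and 20.1% (18.2 to 22.2%) and 18.2% (17.4 to 19.1%) lay within 10 kb of a narrow peak. Among regions of line 22 the medians were 34.8 and 37.3 kb, and the shares were 20.3% (18.4 to 22.4%) and 20.5% (19.2 to 21.8%). Ranked by gap, the regions of line 16 farthest from a narrow peak were shared less often, 13.6% of the farthest 20% against 17.5% of the nearest 20%. In line 22 the shares were 25.5% and 28.2%.

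The smallest gap was 492 bp, on chromosome 11 between a narrow peak of line 22 and the region from 15009854 to 15011407. It was followed by 559 bp on chromosome 3 for the region from 24862056 and 596 bp on chromosome 6 for the region from 1063926. The calling sets a lower limit on such gaps within a line. The gaps of 492 and 559 bp were between a region of 1 line and a narrow peak of the other. Within a list no 2 broad regions lay closer than 588 bp in line 16 and 585 bp in line 22, just over 4 fragment lengths (584 bp), and a weak stretch nearer than that to a narrow peak of its own line became part of the region of that peak. Accordingly no shared region lay under 585 bp from a narrow peak of its own line. From a narrow peak of the other line, 1 of 1586 shared regions in each line did. Among the not shared regions of line 16, 40 of 8145 were under 585 bp from a narrow peak of line 22. In line 22, 88 of 3937 not shared regions were as near to a narrow peak of line 16. The nearest of line 16 directly adjoined one and the nearest of line 22 lay at 2 bp. A shared region overlaps a partner in the other line, which must keep this distance from narrow peaks of that line. A not shared region has no such partner, so the rule sets the groups apart here and nothing is read from these counts. At the other extreme, the regions on chromosome 11 from 27657772 and from 27608243 lay 488 and 438 kb from any narrow peak and were the first and last of the 3 farthest, with chromosome 12 from 23016349 at 443 kb between them. In lines 16 and 22 the fold enrichments of the region from 27657772 were 2.31 and 1.96, those of the region from 27608243 were 2.09 and 1.95, and those on chromosome 12 were 2.2 and 2.07, all inside the range of the other regions.

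**Figure D3:**
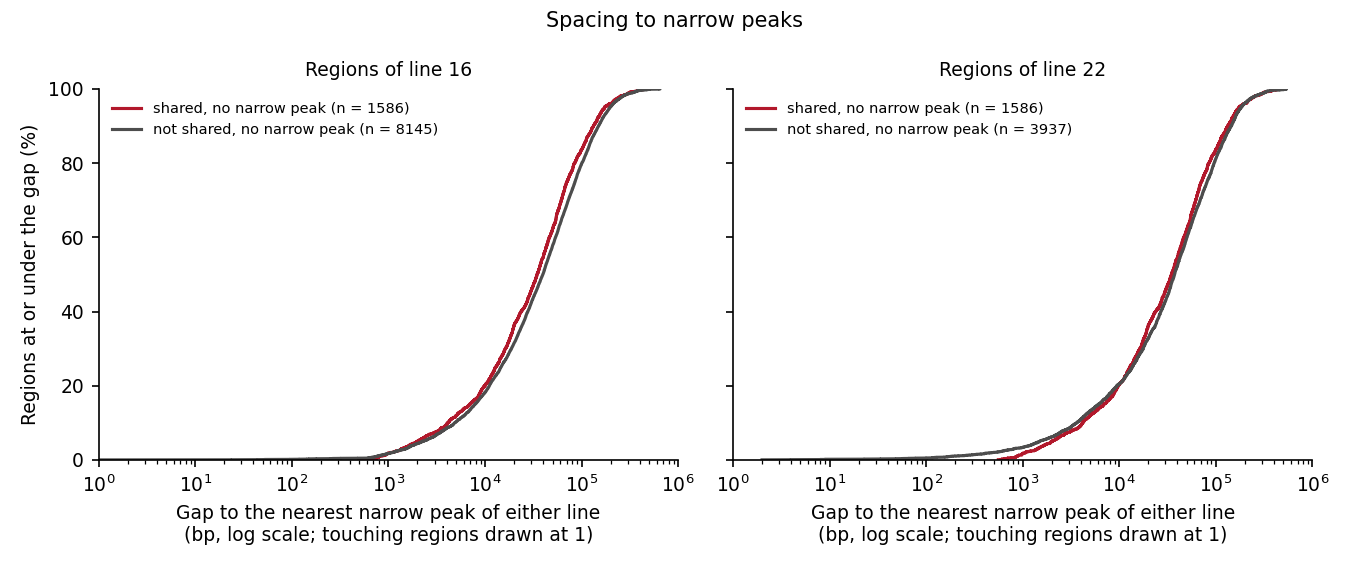
Cumulative share of regions without a narrow peak (vertical axis, %) at or under each gap to the nearest narrow peak of either line (horizontal axis, bp, log scale), for regions of line 16 and of line 22. Shared (red) and not shared (grey) regions have medians of 34.6 and 39.7 kb in line 16 and 34.8 and 37.3 kb in line 22. Shared regions start only at 492 bp.

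The shared regions mostly lay singly. They were few, and their spacing was not compared with that of randomly placed regions. The gap from 1 shared region to the next on the same chromosome had a median of 152 kb, from 485 bp to 2.31 Mb. Of 1570 such gaps, 25 were within 3 kb and 86 (5.48%) within 10 kb. Joining neighbours across gaps of up to 3 kb gave 1557 groups, of which 1532 were a single region and 25 were a pair. In 366 complete windows of 1 Mb, the count of shared regions had a mean of 4.25 ± 2.22 (SD over windows) and a highest value of 10, and 9 windows had none. The variance of this count over its mean was 1.16. For the not shared regions, which were more numerous, it was 1.70 in line 16 and 1.47 in line 22. Over the same windows, the count of shared regions was weakly related to the count of not shared regions, with r = 0.184 in line 16 and r = 0.306 in line 22, as a description over windows of the same libraries.

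The 4 windows with 10 shared regions were chromosome 1 from 39 to 40 Mb, chromosome 4 from 10 to 11 Mb, chromosome 6 from 13 to 14 Mb and chromosome 8 from 19 to 20 Mb. On chromosomes 1, 4 and 6 these windows had 5, 6 and 6 narrow peaks of line 16 and 1, 3 and 5 of line 22. Their not shared regions numbered 26, 16 and 18 in line 16 and 9, 12 and 8 in line 22. The window on chromosome 8 had 15 narrow peaks and 29 not shared regions of line 16, and 1 narrow peak and 14 not shared regions of line 22.

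All 12 chromosomes held shared weak regions, from 91 on chromosome 10 to 199 on chromosome 1. Per Mb of the span that the lists cover, the density ran from 3.16 on chromosome 4 to 5.10 on chromosome 8, with a median of 4.30. Chromosome 4 was low in other ways. The share of its regions without a narrow peak that were found in both lines was the lowest of the 12 chromosomes in line 16 (13.3%) and in line 22 (22.9%), and so was the median length of its merged regions, at 562.5 bp. It also had the lowest density of narrow peaks of line 16, at 5.30 per Mb. For narrow peaks of line 22 its density was 2.12 per Mb, near the median of 2.22 over the chromosomes. Chromosome 10 came next in line 22 with 24.6% of regions shared, and in line 16 chromosome 3 did with 13.9%. The highest shares were 19.3% on chromosome 12 in line 16 and 31.5% on chromosome 2 in line 22.

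**Figure D4:**
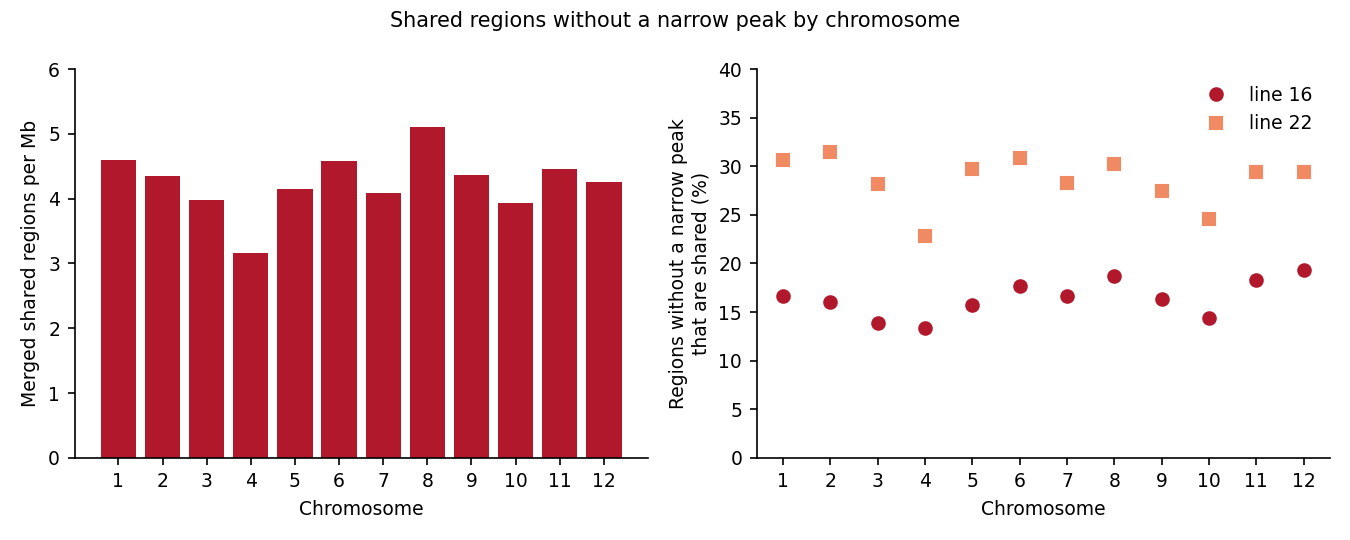
Merged shared regions per Mb of covered span on each of the 12 chromosomes (left, bars from 0), and the share of regions without a narrow peak that were shared, in % (right), for line 16 (circles) and line 22 (squares). Chromosome 4 is lowest in all 3 measures, with 3.16 regions per Mb, 13.3% in line 16 and 22.9% in line 22, and chromosome 8 has the highest density, 5.10 per Mb.

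Along the chromosomes the shared regions were somewhat sparser toward the ends. Positions were taken relative to the highest position in the lists, since chromosome lengths were not used. The first 10% and the last 10% of each span, which add up to 20% of it, held 263 of the 1582 regions, or 16.6% (95% Wilson interval 14.9 to 18.5%), and the share was under 20% on 9 of 12 chromosomes. The other sets gave like values, with 17.1% and 17.6% for the not shared regions of line 16 and line 22 and 16.1% and 15.4% for their narrow peaks. Counted in 10 equal steps, the shared regions made up 8.72% and 8.85% of the total in the first and second steps, 10.1 to 11.9% from step 3 to step 8, and 7.52% and 7.90% in the last 2. In step 9, picked after all 10 steps were seen, the Wilson interval was 6.32 to 8.93% for the shared regions. For the not shared regions of line 16 it was 9.84 to 11.2%. These intervals cover counting error only, regions of the same libraries are not replicates, and the difference was not tested. The narrow peaks of line 16 held 7.81% in step 9 and the not shared regions of line 22 held 8.66%.

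**Figure D5:**
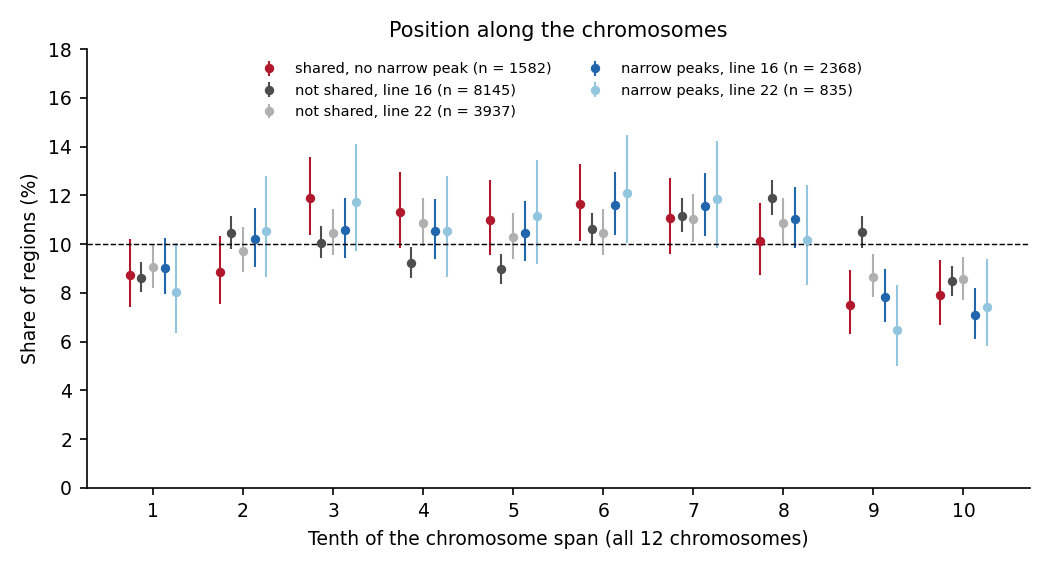
Share of each set (vertical axis, %, with 95% Wilson intervals) in 10 equal steps along the covered span of the chromosomes (horizontal axis), all 12 chromosomes together, for shared regions without a narrow peak, not shared regions and narrow peaks. The dashed line marks 10%. Shared regions hold 7.52% in step 9 and 11.9% in step 3, and not shared regions of line 16 hold 10.5% in step 9.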

How the data were processed

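ChIP and input libraries from lines 16 and 22 were compared within each line. Bowtie2 alignments to MSU7.0 and MACS 2.0.10.20131216 were the authors' work, with lines called separately, a fragment length of 146 bp, 1 tag kept per position, narrow peaks at a q-value of 0.05 and broad regions at 0.1. As deposited, p-values and q-values stand as −log10 and belong to the summit in a narrow list and to the mean of the region in a broad list. Fold enrichment, also as deposited by the authors, is a ratio to local background. The lists are named by the line in their headings, as the labels number the libraries without naming a line. The pileup column of the broad lists was negative in all 12272 and 6810 regions and was not used. Depth limits how weak a region can be called, and intervals cover counting error only.

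Overlaps and gaps were computed with numpy 2.4.6, pandas 2.3.3 and scipy 1.17.1 in Python 3.11.15, and figures were drawn with matplotlib 3.10.9. bedtools 2.31.1 gave the same 1582 merged regions, and the functions were tested on simulated data. Where several regions of a line entered a merged region, their values were averaged. Regions named are the 10 highest by the lower fold enrichment of the lines, the 3 longest, the 3 most different in each direction, the 3 nearest to and farthest from a narrow peak, and the 3 densest windows, of which 4 tied. Members, lists and rules were chosen with earlier results of these data known. No sequence or annotation of MSU7.0 was used, so genes, motifs and the planned list of grain-filling genes were not analysed here.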

Additional observations from a re-analysis of the deposited data

How the results depend on the processing

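Asking that 50% of the shorter region overlap left 1315 merged regions with a median length of 603 bp, and 50% of each region left 785 with 535 bp. A region-averaged q-value of 0.05 or less in both lines left 738. Counting the lists without merging gave 3172. The −log10 p-value in place of fold enrichment gave r = 0.088. With each line alone, which removes the requirement of sharing, line 22 had 5987 regions with a median length of 376 bp, 6.15% of them within 10 kb of its narrow peaks, and line 16 had 9958 with 377 bp and 14.4%. Fewer narrow peaks enter there by construction. Their share in the outermost 20% of the span was 17.0% in either line. All other values under the alternatives, 23 of 35, moved by less than the spread allowed, that is 1.5 times for a count, 18.7 bp for the median length, the Wilson interval for a share, and 0.072 for r. No paired analysis was possible because no test was run and every call already compares ChIP with input inside a line.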

Other observations

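Broad regions that were left out because they held a narrow peak of the other line alone resembled the shared weak regions in their own line. The 227 of line 16 had a median fold enrichment of 2.13, a median length of 413 bp and a median −log10 q-value of 1.47, and the 464 of line 22 had 2.12, 426 bp and 1.4. The narrow peaks they met in the other line had median fold enrichments at the summit of 2.64 and 2.67. Of these regions, 14.5% of line 16 (95% Wilson interval 10.5 to 19.7%) and 12.5% of line 22 (9.80 to 15.8%) lay in the outermost 20% of the chromosome span, beside 16.6% of the shared weak regions. These values are descriptions with no test.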
